A study of Mus musculus with 6 samples.

Results

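The 37 genes described here encode the proteins that bring a nascent secretory protein into the endoplasmic reticulum (ER) and those that carry it out again. They were taken by gene symbol from a table of 48699 mouse genes: 23 act at entry (signal recognition particle, its receptor, the translocon, the translocon-associated protein complex and signal peptidase) and 14 act at exit (the COPII coat and the cargo receptors Lman1, Lman2 and Mcfd2). The choice rested on gene function and was made with earlier results of these data known. Their mRNA was measured in whole liver from 3 hepatocyte-specific double knockout mice (hepatocyte-specific fxr-/- shp-/-) and 3 control mice (Fxrfl/fl Shpfl/fl, both genes flanked by loxP sites). FXR, the product of Nr1h4, is the bile acid receptor, and SHP, the product of Nr0b2, is a corepressor without a DNA-binding domain. All 6 mice were adult C57BL/6 males aged 10 to 12 weeks and fasted overnight for 8 to 10 hours. The column names of both groups carry the word chow. The labels do not name the Cre driver behind the deletion, and by design the non-parenchymal cells of the knockout livers keep both receptors. Values are FPKM as scaled by the authors. By definition these are sequenced fragments divided by transcript length in kilobases and by the library total in units of 1000000. Whether the authors' software rescaled that total between libraries was not checked.

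A hepatocyte secretes most of the proteins of blood plasma. The signal recognition particle (SRP) binds the signal sequence as it leaves the ribosome and docks on its receptor at the ER membrane. The chain is then threaded through the Sec61 channel, helped by the translocon-associated protein (TRAP) complex and, for many chains, by Sec62 and Sec63, and signal peptidase cuts the signal off. Folded cargo leaves at ER exit sites, where the GTPase Sar1 recruits an inner coat of Sec23 and Sec24 and an outer coat of Sec13 and Sec31. Cargo receptors span the membrane, or sit beside a receptor that does, and hand soluble cargo to the coat.

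The FPKM implied a total of 13.2 to 14.1 fragments per library, times 1000000, on the authors' scale. The FPKM of all genes summed to 610618 to 697877 in the double knockouts and 702759 to 841745 in the controls. Both deleted genes were lower in every knockout library: Nr0b2 had 0.216, 0.0734 and 0.293 FPKM in the double knockouts, against 14.7, 17.6 and 18.7 FPKM in the controls, and Nr1h4 had 21.1, 15.5 and 22.04 FPKM in the double knockouts, against 59.8, 71.8 and 68.0 FPKM in the controls. Control replicate 3 stood apart, with Pearson correlations of 0.952 and 0.955 with the other controls, which correlated at 0.983 with each other. Its correlations with knockout replicates 1, 2 and 3 were 0.956, 0.954 and 0.966, the last above those with either control. Control replicates 1 and 2 correlated with knockout replicate 1 at 0.971 and 0.968. Control replicate 3 also had the highest level of 13 of 16 immediate-early genes, whose summed level was 84.6 to 208 FPKM in the double knockouts and 80.3 to 674 FPKM in the controls. All 10 hepatocyte markers were found, and their summed level ran from 39552 to 62909 FPKM in the double knockouts and from 67377 to 81998 FPKM in the controls, without overlap. Alb made up a large part of that sum, with 23233, 17009 and 34609 FPKM in the double knockouts and 37008, 43645 and 42011 FPKM in the controls. Of the 10 markers, 0 had an adjusted p under 0.05 in limma. Apob, Serpina1a and Serpina1c overlapped between the groups and Alb did not, and overlap is not given here for the other markers. The summed cholangiocyte markers ran from 59.1 to 64.0 FPKM in the double knockouts and from 33.8 to 44.2 FPKM in the controls. Kupffer cell markers summed to 93.8 to 239 FPKM in the double knockouts and 51.6 to 142 FPKM in the controls. Fewer cells of a type and less RNA per cell cannot be told apart in whole liver, and the part these shifts have in the values of the secretory genes was not tested.

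No member passed the test between the genotypes. With limma on log2(FPKM + 1) and Benjamini-Hochberg adjustment over 11810 genes, 0 of the 36 tested members had an adjusted p under 0.05, against 37 genes in all (0.313%; 0.169% higher and 0.144% lower in the double knockouts). At an unadjusted p under 0.05 there were 6 members (16.7%), close to the 14.9% of all genes, and the 3 libraries of each group did not overlap in 8 members (22.2%), against 22.9% of all genes. The direction leaned down: 25 of 36 members had a negative fold change (69.4%), against 50.8% of all genes, but under quantile normalization 19 did (52.8%), against 51.3% of all genes. Of the 8 members without overlap, 7 were lower in the double knockouts, where the background is 11.6% of genes, and 1 was higher, where it is 11.3%. Of the 6 with an unadjusted p under 0.05, 5 were lower (7.98% of all genes) and 1 was higher (6.97% of all genes). The median log2 fold change, double knockout minus control, was -0.14 over the members and -0.006 over all genes tested. The p-values rest on the spread between 3 livers a group, and the smallest exact permutation p for groups of 3 is 0.1.

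**Figure D1:**
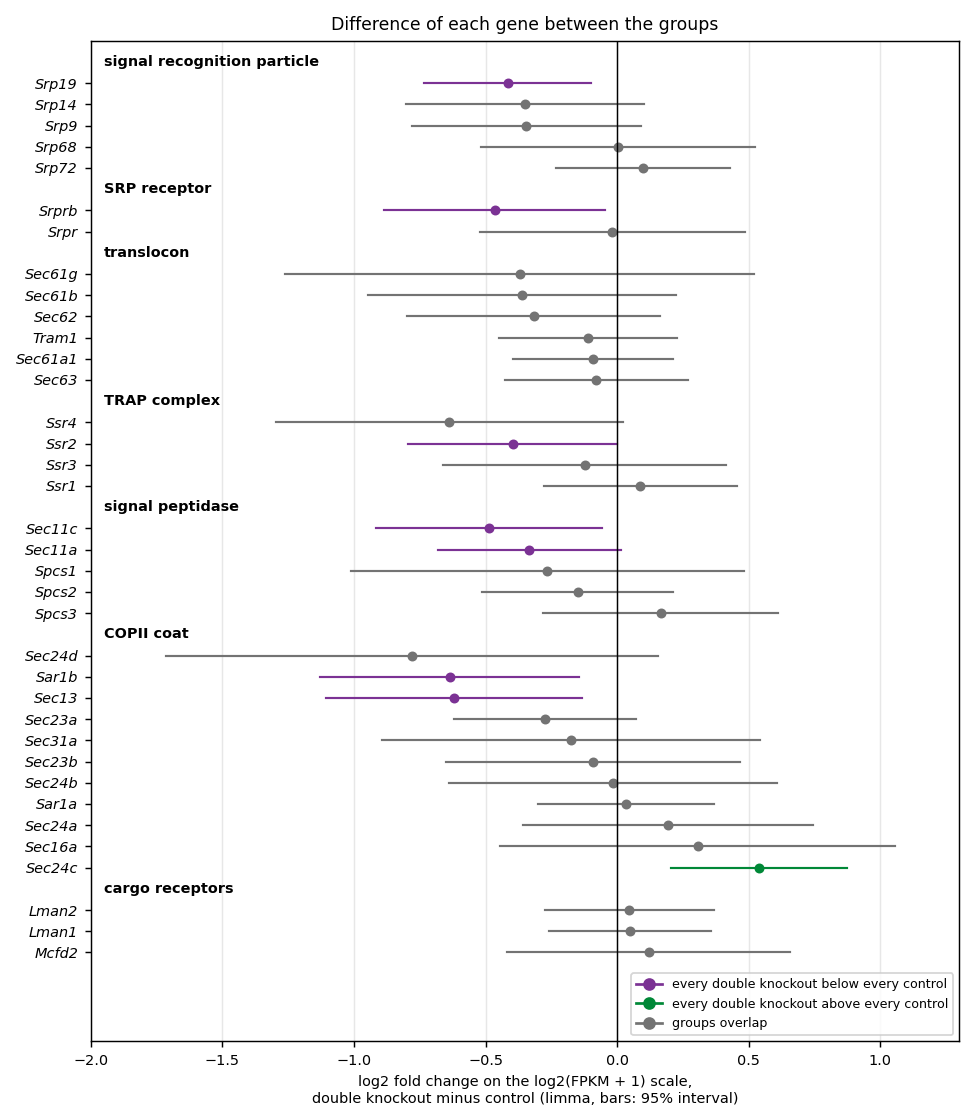
Log2 fold change, double knockout minus control on the log2(FPKM + 1) scale, for each of the 36 tested members, with its 95% confidence interval from limma, in role order; purple marks members with every double knockout below every control, green the reverse, and grey overlapping groups. Most entry genes lie left of 0 with the authors' scaling, the exit genes lie on both sides, Sec24d (-0.78) and Sec24c (0.54) are at the ends, and no member has an adjusted p under 0.05.

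Among the genes of the signal recognition particle, Srp19 was lower without overlap, and the pair Srp9 and Srp14, which together form the Alu domain of the particle, had negative fold changes with overlapping groups. Srp19 helps assemble the particle by binding its RNA. It had 19.1, 17.6 and 20.5 FPKM in the double knockout livers, against 23.7, 26.6 and 27.0 FPKM in the control livers. Every knockout library lay below every control library, with means of 19.1 ± 1.42 FPKM in the double knockouts and 25.8 ± 1.77 FPKM in the controls (SD, n = 3 each), but the log2 fold change, -0.42 (SE 0.14), did not pass the test (adjusted p = 0.240 in limma). Srp14 was the most abundant of the particle's genes, with 40.2, 40.6 and 48.9 FPKM in the double knockout livers, against 45.5, 52.2 and 70.6 FPKM in the control livers. Its highest knockout library lay above its lowest control library (log2 fold change -0.35, SE 0.19; adjusted p = 0.434 in limma), and without control replicate 3 the log2 fold change was -0.17. Its partner Srp9 had 42.5, 39.4 and 47.8 FPKM in the knockouts and 44.0, 56.5 and 66.9 FPKM in the controls, with overlap of the same kind and a log2 fold change of -0.34 (SE 0.19; adjusted p = 0.423 in limma), or -0.21 without control replicate 3. Srp68 and Srp72 form a heterodimer that binds the other end of the RNA. Srp68 had 19.6, 15.7 and 16.5 FPKM in the knockouts and 19.8, 20.9 and 12.1 FPKM in the controls, with control replicate 3 the lowest (log2 fold change 0.0021). Srp72 had 28.7, 28.5 and 32.2 FPKM in the knockouts and 26.9, 25.6 and 31.1 FPKM in the controls, with overlapping groups (log2 fold change 0.097). Srp54a, one mouse gene for the GTPase subunit that holds the signal sequence, was listed at 0 in all 6 libraries and was not tested. Its near-identical copy Srp54b had 0.696, 0.953 and 0.783 FPKM in the knockouts and 0.337, 0.168 and 0.542 FPKM in the controls. How multiply mapped fragments were treated is not known from the labels, so the level of the GTPase subunit is uncertain.

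The receptor of the particle is a pair of GTPases: Srpr is the subunit that meets Srp54, and Srprb anchors it in the membrane. Srpr was the more abundant, with 68.0, 67.4 and 76.9 FPKM in the double knockout livers, against 65.8, 56.7 and 98.1 FPKM in the control livers. The groups overlapped, and control replicate 3 was the highest library (log2 fold change -0.018, SE 0.22; adjusted p = 0.978 in limma). Srprb had 5.17, 3.72 and 3.72 FPKM in the double knockout livers, against 5.92, 7.27 and 5.34 FPKM in the control livers. All 3 knockout libraries lay below the controls, with means of 4.20 ± 0.832 FPKM in the double knockouts and 6.17 ± 0.993 FPKM in the controls (SD, n = 3 each), and the log2 fold change was -0.47 (SE 0.18; adjusted p = 0.300 in limma). On the plus-one log scale this understates the difference of a gene at so low a level. Exons of Srprb overlap the gene model Gm20425 on the same strand, so its fragments may be split between them.

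All 6 genes of the translocon had negative log2 fold changes, with a median of -0.21, but only 3 did under quantile normalization, where Sec63, Tram1 and Sec61a1 were above 0. In none of them did the groups separate. Sec61a1 encodes the channel itself, and Sec61b and Sec61g encode its small single-span subunits. Sec61b was the most abundant, with 132, 102 and 162 FPKM in the double knockout livers, against 132, 159 and 222 FPKM in the control livers. The lowest control library equalled the middle knockout library to the digits given, and control replicate 3 was the highest of all 6 (log2 fold change -0.36, SE 0.25; adjusted p = 0.521 in limma). The log2 fold change was -0.16 without that library and -0.19 without knockout replicate 2. Sec61g had 62.5, 44.5 and 78.2 FPKM in the knockouts and 56.5, 58.6 and 143 FPKM in the controls; control replicates 1 and 2 lay within the knockout range, and without control replicate 3 its log2 fold change was 0.063, against -0.37 with all libraries. Sec61a1 had 46.3, 41.8 and 42.4 FPKM in the knockouts and 44.1, 46.8 and 48.4 FPKM in the controls, a narrow range in which the groups overlapped (log2 fold change -0.093). Sec62 had the smallest p of the translocon genes. It had 59.6, 44.3 and 49.7 FPKM in the double knockout livers, against 67.6, 77.1 and 49.3 FPKM in the control livers. Control replicate 3 lay within the knockout range and the other controls above it (log2 fold change -0.32, SE 0.21; adjusted p = 0.499 in limma); it was -0.18 without control replicate 2 and -0.50 without control replicate 3. Its partner Sec63, a DnaJ-type membrane protein that brings BiP to the channel, had 56.0, 56.9 and 57.4 FPKM in the knockouts and 60.1, 69.0 and 52.2 FPKM in the controls, the knockouts lying within the control range (log2 fold change -0.080). Tram1, a membrane protein that touches some nascent chains, had 42.8, 36.4 and 41.8 FPKM in the knockouts and 39.1, 44.9 and 47.0 FPKM in the controls, with overlap (log2 fold change -0.11).

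The TRAP complex has the subunits alpha to delta, encoded by Ssr1 to Ssr4. Ssr4, on the X chromosome (ENSMUSG00000002014.12, chromosome X, 73787028 to 73790830, plus strand, GRCm38), was the most abundant, with 99.9, 81.9 and 117 FPKM in the double knockout livers, against 115, 135 and 234 FPKM in the control livers. Knockout replicate 3 lay just above control replicate 1, so the groups overlapped by 1 library, and control replicate 3 had the highest value by a wide margin. The means were 99.6 ± 17.6 FPKM in the double knockouts and 161 ± 63.8 FPKM in the controls (SD, n = 3 each), and the log2 fold change was -0.64 (SE 0.28; adjusted p = 0.347 in limma). Without control replicate 3 it was -0.34. Ssr2 had 58.1, 43.7 and 58.3 FPKM in the double knockout livers, against 62.1, 75.3 and 73.3 FPKM in the control livers. The groups did not overlap, and the log2 fold change was -0.40 (SE 0.17; adjusted p = 0.335 in limma). Ssr3, at 91.0, 74.1 and 90.8 FPKM in the knockouts and 74.8, 81.9 and 129.7 FPKM in the controls, and Ssr1, at 11.8, 9.26 and 12.6 FPKM in the knockouts and 10.3, 11.1 and 9.97 FPKM in the controls, overlapped between the groups, with log2 fold changes of -0.12 and 0.088.

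Signal peptidase pairs a catalytic subunit, Sec11a or Sec11c, with the accessory subunits Spcs1, Spcs2 and Spcs3. Both catalytic subunits were lower in every knockout library than in any control library, as were 11.6% of all genes. The accessory subunits overlapped, and their contrast with the catalytic ones was not tested. Sec11c had 32.0, 27.0 and 28.2 FPKM in the double knockout livers, against 35.7, 36.8 and 52.5 FPKM in the control livers. Its log2 fold change was -0.49 (SE 0.18; adjusted p = 0.294 in limma), or -0.31 without control replicate 3. Sec11a had 32.1, 32.5 and 33.5 FPKM in the double knockout livers, against 35.2, 46.0 and 43.8 FPKM in the control livers. The knockout libraries were nearly equal and the controls lay above them, with a log2 fold change of -0.33 (SE 0.15; adjusted p = 0.348 in limma). Exons of Sec11a overlap the gene Nmb on the same strand. Summed, the catalytic subunits stood at 61.7 ± 2.33 FPKM in the double knockouts and 83.4 ± 12.7 FPKM in the controls (SD, n = 3 each). Spcs1 was the most abundant accessory subunit, with 80.0, 85.8 and 109 FPKM in the double knockout livers, against 85.7, 82.4 and 185 FPKM in the control livers. Control replicate 3 was far above the other 5 libraries, which overlapped (log2 fold change -0.27, SE 0.32; adjusted p = 0.723 in limma), and without it the log2 fold change was 0.11. Spcs2 had 72.1, 67.4 and 58.2 FPKM in the knockouts and 64.2, 77.7 and 77.7 FPKM in the controls, with overlap (log2 fold change -0.15). Spcs3, whose yeast counterpart is needed for cleavage, had 21.0, 18.7 and 22.2 FPKM in the knockouts and 14.8, 17.4 and 23.7 FPKM in the controls, the knockouts lying within the control range (log2 fold change 0.16).

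**Figure D2:**
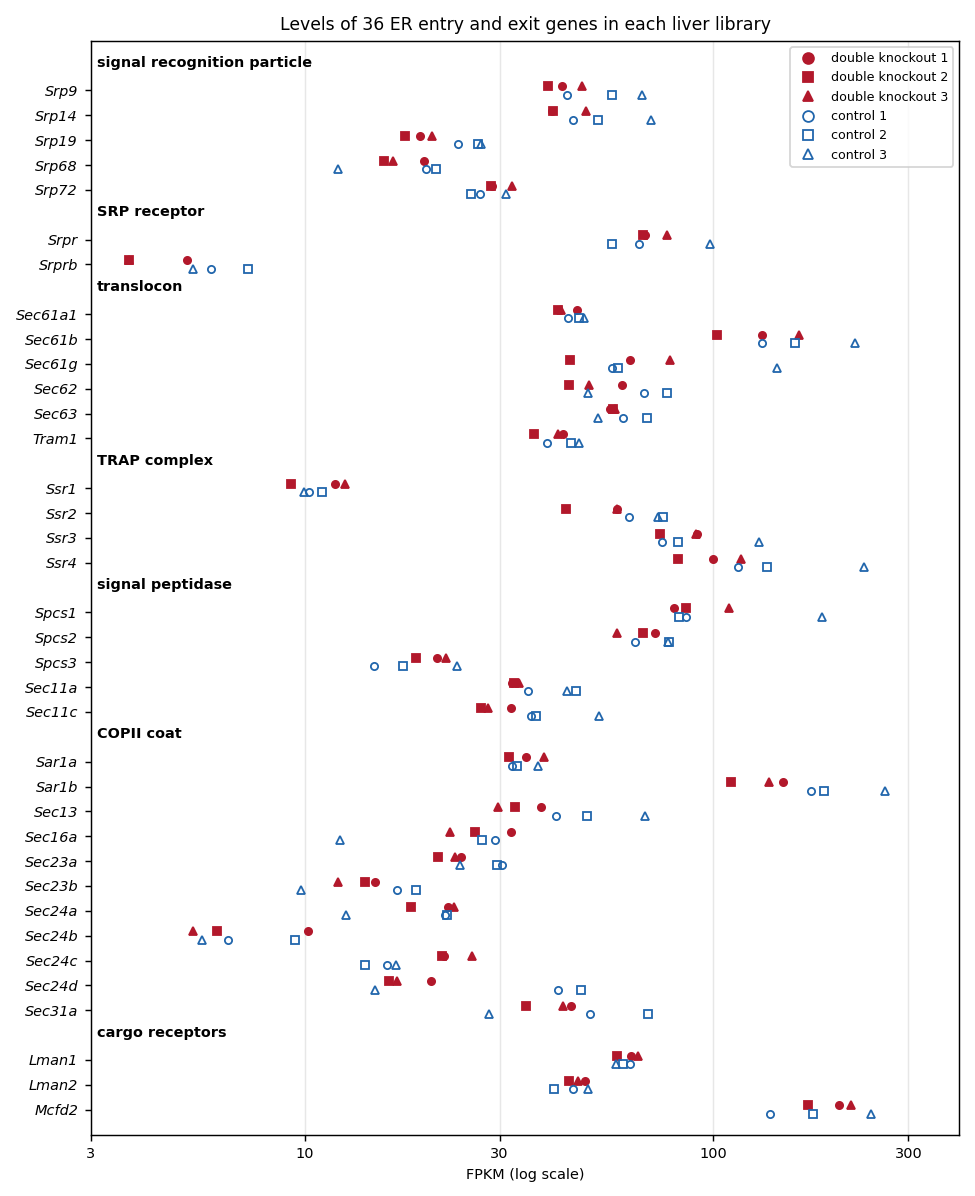
FPKM (log axis) of the 36 tested members in each liver, in role order, with double knockouts as filled red symbols above and controls as open blue symbols below; circle, square and triangle are replicates 1, 2 and 3. Mcfd2, Sar1b, Sec61b and Ssr4 are the most abundant, and the groups overlap in all but 8 members.

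At exit, the COPII coat held the members with the largest point estimates in either direction. Sar1b and Sec13 were lower in the double knockouts without overlap and Sec24c was higher without overlap, while Sec24d was lower in the double knockouts than in controls 1 and 2 but not than in control replicate 3. Of the 11 COPII genes, 7 had a negative and 4 a positive fold change, with a median of -0.093. Promoter windows follow for the COPII genes with the lowest and highest fold changes, Sec24d and Sec24c, and for Sec23a, which shares a motif with Sec24d. They come from RefSeq on GRCm38.p6, each from 250 bases before to 50 after the RefSeq start, and are written 5′ to 3′ along the gene's strand. In Sec24d and Sec23a the capitals mark TGACGTGG, the core of the unfolded protein response element that XBP1 binds. In Sec24c they mark CCACG, the second part of the ER stress element, read here on the opposite strand.
Sec24d, chr3:123267246-123267545, plus strand: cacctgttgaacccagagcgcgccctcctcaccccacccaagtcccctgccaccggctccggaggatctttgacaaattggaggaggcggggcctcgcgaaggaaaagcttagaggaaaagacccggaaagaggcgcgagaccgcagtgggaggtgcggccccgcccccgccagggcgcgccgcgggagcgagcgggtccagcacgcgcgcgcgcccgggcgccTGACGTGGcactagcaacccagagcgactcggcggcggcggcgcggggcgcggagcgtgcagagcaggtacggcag
Sec23a, chr12:59011968-59012267, minus strand: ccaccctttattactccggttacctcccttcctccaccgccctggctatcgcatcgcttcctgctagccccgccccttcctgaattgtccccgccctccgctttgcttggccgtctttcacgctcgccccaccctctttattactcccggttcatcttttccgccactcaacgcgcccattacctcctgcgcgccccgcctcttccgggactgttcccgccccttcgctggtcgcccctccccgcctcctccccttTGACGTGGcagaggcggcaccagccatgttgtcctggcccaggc
Sec24c, chr14:20674071-20674370, plus strand: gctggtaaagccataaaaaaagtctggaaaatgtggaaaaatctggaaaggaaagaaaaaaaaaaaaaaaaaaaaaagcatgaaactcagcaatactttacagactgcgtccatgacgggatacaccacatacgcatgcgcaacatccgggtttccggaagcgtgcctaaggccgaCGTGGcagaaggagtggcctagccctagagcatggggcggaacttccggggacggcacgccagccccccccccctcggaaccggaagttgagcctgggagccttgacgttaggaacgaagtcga

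The TGACGTGG match begins 26 bases before the RefSeq start of Sec24d and 6 bases after that of Sec23a. RefSeq windows were found for 29 of the 37 members, and TGACGTGG, searched on both strands, was in these 2 (6.90%), against 0.714% of 27025 genes with a window. CCACG, whose reverse complement lies within TGACGTGG, was in 19 of 29 (65.5%), against 35.5% of all genes. The whole ER stress element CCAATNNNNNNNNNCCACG was in 0 of 29 members and in 0.137% of all genes, and the related ERSE-II (ATTGG and CCACG with 1 base between) was in 0 of 29 and in 0.0444%. The members' windows were also richer in G and C, with a median of 60.0% against 52.7%, and held a median of 21 CpG against 7. A match describes the letters in this window and shows no binding.

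Sar1b (ENSMUSG00000020386.5, chromosome 11, 51763687 to 51791925, plus strand, GRCm38) is the Sar1 form whose loss in people causes chylomicron retention disease. It had 148, 111 and 137 FPKM in the double knockout livers, against 173, 187 and 264 FPKM in the control livers. Every knockout library lay below every control library, and control replicate 3 was the highest. The means were 132 ± 19.3 FPKM in the double knockouts and 208 ± 48.8 FPKM in the controls (SD, n = 3 each), a 1.57-fold lower level in the double knockouts, and the log2 fold change was -0.64 (SE 0.21, 95% confidence interval -1.13 to -0.14; adjusted p = 0.245 in limma). Sar1a, its close paralog, had 34.8, 31.6 and 38.6 FPKM in the knockouts and 32.2, 33.03 and 37.2 FPKM in the controls, with overlapping groups and a log2 fold change of 0.033. Sar1b therefore made up a smaller share of the summed Sar1 FPKM, at 78.9 ± 1.79% in the double knockouts and 85.6 ± 1.77% in the controls (SD, n = 3 each), without overlap. The summed level was 167 ± 21.8 FPKM in the double knockouts and 242 ± 51.5 FPKM in the controls.

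Sec13, which forms the outer cage with Sec31 and is also part of the nuclear pore, had 37.9, 32.7 and 29.7 FPKM in the double knockout livers, against 41.2, 49.2 and 68.0 FPKM in the control livers. The groups did not overlap. The means were 33.4 ± 4.12 FPKM in the double knockouts and 52.8 ± 13.7 FPKM in the controls (SD, n = 3 each), 1.58-fold lower in the double knockouts, with a log2 fold change of -0.62 (SE 0.21; adjusted p = 0.25 in limma); it is given in full because of its values. Its cage partner Sec31a had 44.8, 34.8 and 43.0 FPKM in the knockouts and 49.8, 69.1 and 28.2 FPKM in the controls, with overlap (log2 fold change -0.18). Its control values spread more widely than its knockout values, control replicate 3 being the lowest of the 6 libraries. Sec16a, the scaffold of ER exit sites, had 31.9, 26.1 and 22.7 FPKM in the knockouts and 29.2, 27.1 and 12.2 FPKM in the controls; control replicate 3 was again lowest, and the log2 fold change was 0.31 with all libraries and -0.075 without that one.

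The 4 forms of Sec24 bind different cargo signals. In mice and cultured cells, Sec24a and Sec24b overlap in cargo choice, as do Sec24c and Sec24d. Sec24c (ENSMUSG00000039367.9, chromosome 14, 20674308 to 20694852, plus strand, GRCm38) had 21.96, 21.7 and 25.6 FPKM in the double knockout livers, against 16.0, 14.04 and 16.7 FPKM in the control livers. All 3 knockout libraries lay above the controls, and within each group the libraries were close together. The means were 23.1 ± 2.19 FPKM in the double knockouts and 15.6 ± 1.39 FPKM in the controls (SD, n = 3 each), a ratio of 1.48, and the log2 fold change of 0.54 (SE 0.14, 95% confidence interval 0.21 to 0.87) had the smallest p of any member (adjusted p = 0.184). Limma was also run with each library weighted by how closely it followed its group mean over all genes. Control replicate 3 received the smallest weight, 0.232 against 0.981 to 2.13 for the others. These weights come from the same values and use no separate measure of quality. Sec24c then passed the threshold (adjusted p = 0.0408), in a fit that called 4.77% of all genes.

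Sec24d (ENSMUSG00000039234.11, chromosome 3, 123267455 to 123365641, plus strand, GRCm38), given in full because of its values, had 20.3, 16.1 and 16.8 FPKM in the double knockout livers, against 41.8, 47.6 and 14.9 FPKM in the control livers. Control replicates 1 and 2 were far above the knockouts, and control replicate 3 was below all of them. The means were 17.7 ± 2.28 FPKM in the double knockouts and 34.7 ± 17.5 FPKM in the controls (SD, n = 3 each), and the log2 fold change was -0.78 (SE 0.40; adjusted p = 0.403 in limma). Without control replicate 3, limma gave a log2 fold change of -1.29 with an adjusted p of 0.0178, in a fit that called 2.05% of all genes, and with library weights -1.17 with an adjusted p of 0.0376. Without control replicate 2 the log2 fold change was -0.48 with a limma adjusted p of 0.710. Sec24c had an adjusted p of 0.0806 without control replicate 3. Among the alternatives run, a member passed only with library weights or without control replicate 3.

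Of the summed Sec24 FPKM, Sec24d held 25.6 ± 1.75% in the double knockouts and 43.1 ± 11.6% in the controls (SD, n = 3 each). Its 3 knockout shares, 23.7% to 27.2%, lay below its control shares, 29.8% to 51.0%, although the FPKM themselves overlapped. Sec24c held 33.5 ± 3.63% in the double knockouts and 22.4 ± 9.87% in the controls, with control replicate 3 at 33.6% within the knockout range. Sec24a, at 22.4, 18.2 and 23.2 FPKM in the knockouts and 22.03, 22.3 and 12.6 FPKM in the controls (log2 fold change 0.19), held 30.6 ± 1.79% in the double knockouts and 24.9 ± 0.926% in the controls, without overlap, and Sec24b, at 10.2, 6.10 and 5.34 FPKM in the knockouts and 6.51, 9.50 and 5.63 FPKM in the controls, was the lowest of the family. The family's sum was 69.4 ± 6.54 FPKM in the double knockouts and 76.5 ± 23.4 FPKM in the controls, with overlap. Shares of a family add to a fixed whole, so they are not independent of each other, and they were computed after the values were seen. The ratio of Sec24d to Sec24c was 0.926, 0.738 and 0.657 in the double knockouts, against 2.62, 3.39 and 0.887 in the controls. Control replicate 3 thus stood with the knockouts in the balance of the second pair of Sec24 forms. Of the Sec23 forms, which activate the GTPase of Sar1, Sec23a had 24.2, 21.3 and 23.3 FPKM in the knockouts and 30.5, 29.6 and 24.1 FPKM in the controls, with knockout replicate 1 just above control replicate 3 (log2 fold change -0.27). Sec23b had 14.9, 14.1 and 12.1 FPKM in the knockouts and 16.8, 18.7 and 9.82 FPKM in the controls, with the knockouts within the control range (log2 fold change -0.093).

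**Figure D3:**
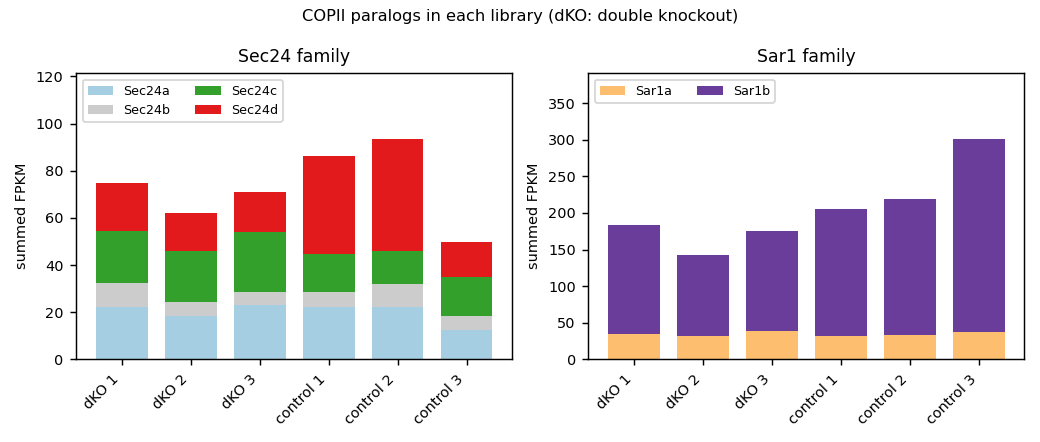
Stacked bars of FPKM for the members of the Sec24 family (left) and the Sar1 family (right), 1 bar per liver, double knockouts (dKO) left of controls. Of a bar's height, Sec24d holds 23.7% to 27.2% in the double knockouts and 29.8% to 51.0% in the controls, and Sar1b holds 77.8% to 81.0% in the double knockouts and 84.3% to 87.6% in the controls.

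The 3 cargo receptors had positive fold changes near 0, and those of Lman1 and Lman2 were below 0 once the trend on length and GC content was removed. Lman1 (also called ERGIC-53) and Mcfd2 together carry coagulation factors V and VIII out of the ER. Mcfd2 was the most abundant of all members, with 203, 171 and 217 FPKM in the double knockout livers, against 138, 176 and 243 FPKM in the control livers. The knockout range lay within the control range (log2 fold change 0.12, SE 0.23, 95% confidence interval -0.42 to 0.66; adjusted p = 0.836 in limma). Lman1 had 62.9, 58.0 and 65.6 FPKM in the double knockout livers, against 62.4, 60.1 and 57.7 FPKM in the control livers. The libraries overlapped within a narrow band, with a log2 fold change of 0.048 (SE 0.13, 95% confidence interval -0.26 to 0.36; adjusted p = 0.890 in limma). Lman2, a lectin receptor also called VIP36, had 48.5, 44.4 and 46.7 FPKM in the knockouts and 45.4, 40.7 and 49.3 FPKM in the controls, again within a narrow band (log2 fold change 0.046).

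Entry was then set against exit. Of 22 tested entry genes, 18 had a negative fold change, with a median of -0.29, and under quantile normalization 12 did, with a median of -0.090. Of the entry genes, 3 had an unadjusted p under 0.05 (13.6%, against 14.9% of all genes) and 5 did not overlap (22.7%, against 22.9%), all lower in the double knockouts. Of 14 exit genes, 7 were negative and 7 positive, with a median of 0.0081, 3 at an unadjusted p under 0.05 and 3 without overlap (21.4% in each case, against 14.9% and 22.9% of all genes). The mean log2(FPKM + 1) of the tested entry genes was 5.40, 5.21 and 5.44 in the double knockouts, against 5.40, 5.55 and 5.77 in the controls. That of the exit genes was 5.22, 4.98 and 5.09 in the double knockouts, against 5.23, 5.34 and 5.01 in the controls. With the authors' scaling the double knockouts were thus lower on average at both stages, with overlapping libraries. Under quantile normalization the median log2 fold change of the exit genes was 0.064. Entry minus exit was 0.17, 0.23 and 0.35 in the double knockouts and 0.17, 0.22 and 0.76 in the controls. Control replicate 3 stood above the other 5 libraries, with the highest entry mean and the lowest exit mean of the controls. The group difference in entry minus exit was -0.13 with all libraries, smaller than the pooled SD of 0.24, and 0.054 without control replicate 3. The medians then were -0.17 for entry and -0.12 for exit.

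**Figure D4:**
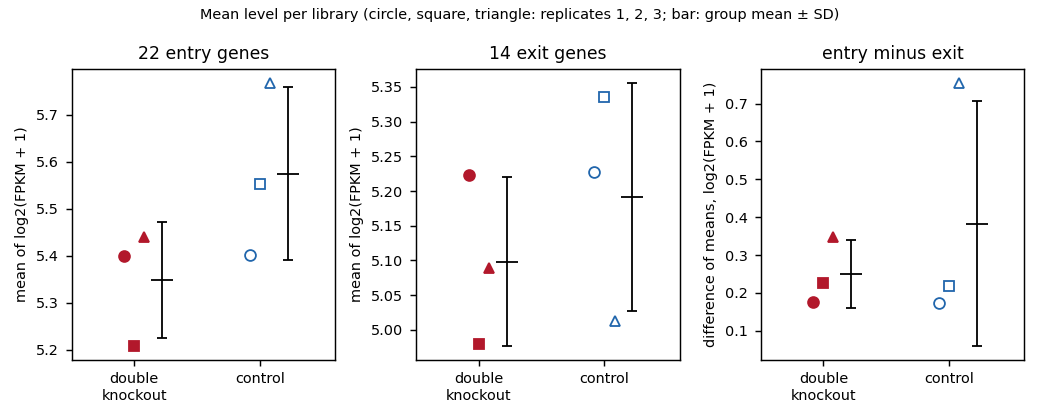
Mean log2(FPKM + 1) of the entry genes and of the exit genes in each liver, and their difference, double knockout left of control; circle, square and triangle are replicates 1, 2 and 3, and bars are group means ± SD. Control replicate 3 has the highest entry mean (5.77), an exit mean of 5.01 and an entry minus exit of 0.76, against 0.17 to 0.35 in the other 5 libraries.

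Transcript length moved with these values. The Spearman correlation of the log2 fold change with transcript length, taken from the longest coding transcript in GENCODE M21, was 0.66 over the 36 members and 0.42 over 11791 genes, a description over genes that share the same libraries. Whether that transcript is the one used in liver was not checked. Sec61g, the member most raised in control replicate 3 over the other controls, is counted at 1862 bases. The 11 members shorter than 1500 bases, a limit set after the values were seen, all had negative fold changes: 9 entry genes with a median of -0.36, and Sar1b and Sec13 at exit with a median of -0.63. Of these, Spcs1 was above 0 without control replicate 3. Among all genes that short, 73.8% were negative, with a median of -0.26. Of the longer members, 9 of 13 entry genes were negative (median -0.093) and 5 of 12 exit genes (median 0.040), against 45.4% of all longer genes (median 0.033). Control replicate 3 over the other controls also followed length, with a correlation of -0.61 over the members and -0.25 over all genes. It was the highest of the 6 libraries in 13 of 22 entry genes and 4 of 14 exit genes, and the lowest in 2 and 6. Without it the correlation of fold change with length was 0.21 over the members. With the trend on length and GC content removed from each library, entry minus exit differed by -0.01, Sar1b had a log2 fold change of -0.41, Sec13 -0.46, Sec24c 0.40 and Sec24d -0.88, and no member was called. Whether length has a part in the members' values was not tested.

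**Figure D5:**
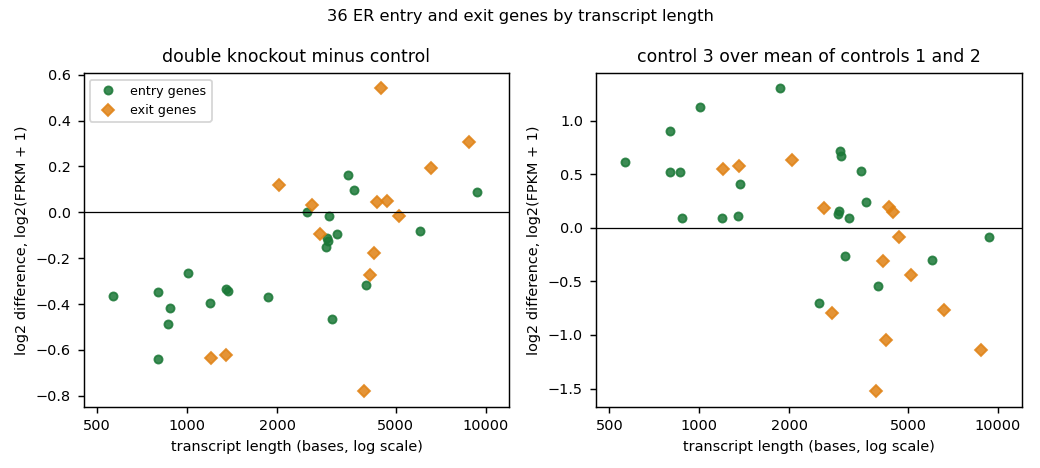
Differences on the log2(FPKM + 1) scale against transcript length in bases (log axis) for the 36 tested members, entry genes as green circles and exit genes as orange diamonds: double knockout minus control on the left, control replicate 3 over the mean of the other controls on the right. On the left the 11 members under 1500 bases all lie below 0, and on the right the correlation with length is -0.61.

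Other genes of the pathway were read from lists chosen by function, with earlier results of these data known, and none passed limma's test with all libraries. Of 22 tested further entry genes (nascent chain, tail-anchor and membrane insertion factors), 16 had negative fold changes with a median of -0.22, 7 lower and 1 higher at an unadjusted p under 0.05, where all genes have 7.98% lower and 6.97% higher. Naca, which sorts nascent chains away from SRP, had 202, 176 and 226 FPKM in the knockouts and 212, 275 and 348 FPKM in the controls, with overlap. Caml, a receptor for tail-anchored proteins, had 12.0, 9.86 and 9.16 FPKM in the knockouts and 14.02, 16.7 and 14.1 FPKM in the controls, without overlap (log2 fold change -0.49; adjusted p = 0.236 in limma). Emc2, of the ER membrane protein complex, had a log2 fold change of -0.47 (limma adjusted p = 0.252). Of 32 tested further exit genes, 20 were negative, with a median of -0.085, 2 lower and 3 higher at an unadjusted p under 0.05, against the same shares of all genes. Mia3 encodes TANGO1, the receptor that lets bulky cargo such as collagen and large lipoproteins leave the ER. It had 16.3, 23.2 and 29.2 FPKM in the double knockout livers, against 8.06, 4.27 and 16.0 FPKM in the control livers. The groups did not overlap (log2 fold change 1.32, SE 0.42; adjusted p = 0.234 in limma), and it passed without control replicate 3 (1.75; adjusted p = 0.0458 in limma) and with library weights (1.68; adjusted p = 0.0341). In the authors' deposited table, 2 of 91 genes of these lists and those of the next paragraph had a q-value under 0.05, against 4.58% of all genes: Mia3 (0.00121) and Mia2 (0.00999). Mia2, named because of that count, had 31.4, 37.3 and 39.6 FPKM in the knockouts and 19.2, 8.20 and 32.9 FPKM in the controls, with overlap (log2 fold change 1.00; adjusted p = 0.331 in limma). The gene identifier given for Mia2 has no transcript in GENCODE M21, so what this entry covers is uncertain. Bet1, a SNARE of ER-derived vesicles, had 38.7, 37.1 and 37.3 FPKM in the knockouts and 57.1, 51.4 and 47.2 FPKM in the controls, without overlap (log2 fold change -0.45; adjusted p = 0.222 in limma). Ctage5, a partner of TANGO1 and the most abundant, had 137, 106 and 134 FPKM in the knockouts and 141, 138 and 109.9 FPKM in the controls, with overlap. Its log2 fold change was -0.046, and its q-value in the authors' deposited table was 0.970. Of 15 tested genes of COPI retrieval, 9 were negative, with a median of -0.031. Arf1, the GTPase that recruits the COPI coat and the most abundant of them, overlapped between the groups. Copb1, a coat subunit, had a log2 fold change of -0.45 with overlap, and Rer1, a retrieval receptor, had -0.34 without overlap.

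Transcription factors known to control secretory genes were read the same way, and 3 of 9 tested had negative fold changes. In 6 of them the groups did not overlap, 3 lower and 3 higher, against 11.6% and 11.3% of all genes. Creb3l3, a liver factor released from the ER membrane, had 128, 121 and 128 FPKM in the double knockout livers, against 170.0, 136 and 199 FPKM in the control livers. The groups did not overlap (log2 fold change -0.40, SE 0.18; adjusted p = 0.343 in limma). Creb3 had 19.8, 19.3 and 16.2 FPKM in the knockouts and 23.8, 25.5 and 23.7 FPKM in the controls, also without overlap (log2 fold change -0.38; adjusted p = 0.280 in limma). Xbp1, singled out after its values were seen, had 57.2, 56.5 and 57.3 FPKM in the knockouts and 92.5, 79.0 and 58.3 FPKM in the controls. The 3 knockout libraries were close together below the controls, of which control replicate 3 lay nearest to them (log2 fold change -0.39; adjusted p = 0.374 in limma). The 3 higher ones, named because of that count, were the stress sensor Atf6 (log2 fold change 0.29), its relative Creb3l2 (0.37) and Mbtps2 (0.28), the protease that releases such factors from the membrane. Of 13 genes for proteins that pass into the ER (secreted proteins, the lysosomal cathepsins Ctsc and Ctsz, and the ER lipid transfer protein Mttp), 6 were negative, with a median of 0.015. F5, coagulation factor V and a cargo of Lman1 and Mcfd2, had 87.1, 85.6 and 85.2 FPKM in the knockouts and 65.9, 62.2 and 49.5 FPKM in the controls, higher without overlap (log2 fold change 0.54; adjusted p = 0.200 in limma). Alb, serum albumin, had 23233, 17009 and 34609 FPKM in the knockouts and 37008, 43645 and 42011 FPKM in the controls, lower without overlap (log2 fold change -0.77; adjusted p = 0.381 in limma).

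In the authors' deposited table, 0 of the 36 members had a q-value under 0.05, against 4.58% of 11844 genes, and 0 had one under 0.01, against 2.38%. The smallest were those of Sec13 (0.0522), Ssr4 (0.0566), Sar1b (0.0714), Sec24d (0.101) and Sec24c (0.144) in the authors' deposited table. In all, 6 members had a p-value under 0.05 in the authors' deposited table, 16.7% against 13.3% of all genes: the 5 named and Sec11c.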

How the data were processed

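Liver mRNA of 3 double knockout and 3 control mice was compared; groups and replicate numbers come from the sample titles, and each column was matched by genotype and number. Libraries were made from 1 µg of total RNA with a stranded mRNA kit, per the labels' protocols. Per the submitters' processing notes, Cuffdiff 2.2.1, STAR 2.4.2a, Trimmomatic, Picard 1.119 and bcl2fastq 2.17.1.14 were used with GRCm38, in an order not stated. None of the sources used here gives the annotation, the use of strand or the treatment of multiply mapped fragments. FPKM were deposited for 48699 genes in each library, and 0 other sample columns were present. The authors deposited a comparison with a p-value and a q-value per gene. FPKM keeps no counts, so no interval was computed from them. Steps in the low values gave the implied total of each library on the authors' scale.

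Limma 3.58.1 in R 4.3.3 was fitted across all 11810 genes whose mean FPKM reached 0.5, on log2(FPKM + 1), using limma's trend option, with Benjamini-Hochberg adjustment at 0.05. Fold changes on that scale understate those of low genes. The script was tested on simulated data. Every member was to be named, in full where past the threshold and otherwise the most abundant and up to 2 with the smallest p in each role group, likewise for each further list; genes beyond that are marked. Members and lists were chosen with earlier results of these data known. Symbols were matched as listed; Srp54c and Get1 were not matched, and 11 members have exons overlapping a gene on the opposite strand, whose fragments cannot be told apart if strand was not used. Marker sums of B cells, T and NK cells, neutrophils, erythroid, endothelial, stellate and acinar cells overlapped between the groups, and 5 of 7 acinar markers, Prss2 among them, were at 0 in every library. The neutrophil sum was 50.7 FPKM in control replicate 3, which was highest in 4 of the 5 neutrophil markers. It was 1.98 and 0.893 FPKM in the other controls and 1.44 to 17.7 FPKM in the double knockouts. The plasma cell list summed to 136 to 165 FPKM in the double knockouts and 174 to 184 FPKM in the controls; hepatocytes also express its members Xbp1 and Sdc1, and its defining marker Jchain had at most 0.744 FPKM in the double knockouts and 1.74 FPKM in the controls. The alternatives tried were other pseudocounts (0.25 or 0.1), a stricter filter (2 FPKM) or none, quantile and median scaling, removal of the trend on length and GC content, library weights, a replicate block, no mean-variance trend, and leaving out each library.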

Additional observations from a re-analysis of the deposited data

How the results depend on the processing

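Of the 36 tested members, 17 kept their direction under all 16 alternatives, among them Sar1b, Sec13, Sec24c and Sec24d, and 19 reversed under at least 1, 11 of them outside the fits that leave out a library. The changes of filter, the replicate block and the fit without the mean-variance trend leave a fold change as it is. They could not have reversed a direction. The count of all genes called was 37, and it was 2 with no filter, 563 with library weights and 2 to 242 with a library left out, 242 without control replicate 3. Members called were 2 with library weights (Sec24c, Sec24d) and 0 to 1 with a library left out (Sec24d without control replicate 3); pathway genes called were 1 and 0 to 1 (Mia3). The entry median was -0.090 under quantile normalization and -0.36 to -0.17 with a library left out; the exit median was -0.12 to 0.072, and entry minus exit -0.24 to 0.054. Under quantile normalization the log2 fold changes reversed to 0.072 for Sec63, 0.024 for Tram1, 0.088 for Ssr3, 0.036 for Sec61a1, 0.15 for Srpr and 0.013 for Spcs2; under median scaling to -0.017 for Srp68; with the length and GC trend removed to -0.15 for Ssr1, -0.090 for Lman2 and -0.070 for Lman1; and with library weights to -0.16 for Srp68, 0.0076 for Spcs1, 0.073 for Ssr3 and 0.18 for Srpr. With a library left out, the log2 fold changes that reversed ran from -0.025 to 0.11 (Lman2), -0.074 to 0.33 (Mcfd2), -0.038 to 0.10 (Sar1a), -0.075 to 0.52 (Sec16a), -0.36 to 0.076 (Sec23b), -0.062 to 0.32 (Sec24a), -0.26 to 0.17 (Sec24b), -0.52 to 0.11 (Sec31a), -0.60 to 0.063 (Sec61g), -0.18 to 0.019 (Sec63), -0.47 to 0.11 (Spcs1), -0.23 to 0.14 (Srp68), -0.18 to 0.21 (Srpr) and -0.28 to 0.12 (Ssr3). The cause was not tested. Same-numbered libraries of the groups correlated in their deviations from the group means at 0.22, -0.075 and 0.30. Deviations from a mean of 3 are tied to each other, so these values cannot decide whether the numbers pair the mice. The replicate block called 50 genes and 0 members. FPKM carry no counts, so counting error at low levels is not separate from the spread between mice.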
